A study of Mus musculus with 2 samples.

Results

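Integrins are heterodimeric adhesion receptors made of 1 alpha and 1 beta subunit, and their genes were followed here across the cell classes of mouse liver in 2 single-cell libraries. Members were taken by symbol: every listed gene whose symbol starts with Itga or Itgb, 31 of the 32285 genes listed. Of these, 27 encode integrin subunits. The other 4 match by name alone: Itgbl1 encodes a secreted integrin beta-like protein, and Itgb1bp1, Itgb1bp2 and Itgb3bp encode proteins named for binding an integrin. All 31 had at least 1 unique molecular identifier (UMI, 1 tagged transcript molecule) in the kept cells of each library.

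Control liver gave the WT library, and liver together with tumor gave the N-LKO library, from mice lacking NgBR, the product of Nus1, in hepatocytes. The deletion was made in C57BL6 males by crossing mice with a loxP-flanked exon of Nus1 to an albumin-Cre line, whose Cre acts in hepatocytes and other albumin-expressing cells. All mice received the diet for 16 weeks, which the sample titles call HFD (high-fat diet) and the treatment labels call WD (Western-type diet). The authors describe the mice of their single-cell data as fed the WD, a diet high in fat and cholesterol. Hepatocytes and non-parenchymal cells were mixed for WT, and tumor cells were added to that mixture for N-LKO, so shares of cells were set in part by the mixing. Each genotype had 1 library, so genotype, tumor tissue and library cannot be told apart, no p-value was computed, and every interval below is a 95% interval of counting error only.

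As background, the alpha subunit largely sets the ligand: one group of alpha subunits binds collagens, one binds laminins, one recognizes the RGD motif of fibronectin and vitronectin, and one is carried by leukocytes. The beta 1 chain pairs with many alpha chains, the beta 2 chain is restricted to leukocytes, and the alpha v chain pairs with the beta 1, 3, 5, 6 and 8 chains. In liver, sinusoidal endothelial and stellate cells are known for the collagen receptor alpha 1 beta 1, and cholangiocytes for alpha v beta 6. Subunits receive N-glycans in the endoplasmic reticulum, from a dolichol-linked donor, and leave it as heterodimers.

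The kept cells numbered 16606 in WT, with a median of 1373 UMIs, and 17532 in N-LKO, with a median of 1418 UMIs. Cells were grouped into 13 classes from marker genes, with the integrin genes left out of the clustering, and 10 classes with at least 150 cells in each library were compared. The libraries shared 2499 barcodes, and 427 kept WT cells and 493 kept N-LKO cells carried such a barcode. Much of the RNA in a cell may have come from outside it. Barcodes below 500 UMIs were taken as the profile of free RNA. Levels are given as CPM, the UMIs of a gene per 1000000 UMIs of its class or set. From the WT profile to that of N-LKO, Itgb1 went from 66.7 to 140 CPM and Itgb5 from 22.5 to 43.8 CPM. The fold difference was larger for other members: Itgb3 held 1.59 and 11.6 CPM, Itgam 1.71 and 10.8, and Itgax 2.57 and 12.0. Itga6 held 2.57 and 11.6 CPM, and Itga4 15.7 and 43.6. Free RNA was lower in N-LKO for Itgb3bp, Itgb1bp1, Itgae, Itgad, Itga2b, Itgb2l and Itgb1bp2. The estimated share of free RNA lay between 34.6% and 59.2% of the UMIs of the 9 compared classes other than hepatocyte-like cells. In hepatocyte-like cells it was 82.0% in WT and 37.4% in N-LKO, a rough estimate because it rested on markers of other cell types.

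The defining markers were detected in each compared class of each library, but their summed level was not the same in the libraries. The 9 stellate markers summed to 12755 CPM in the stellate-like cells of WT and 4273 CPM in those of N-LKO. The 10 monocyte or macrophage markers summed to 544 CPM in WT against 1585 CPM in N-LKO within T/NK-like cells, and to 428 and 1153 CPM within B-like cells. Kupffer markers in T/NK-like cells summed to 666 and 1320 CPM. The part of these other cell types in the results below was not tested.

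Nus1, the targeted gene, checked the genotype label. It stood at 72.9 CPM in WT hepatocyte-like cells (1212 UMIs) and 38.5 CPM in those of N-LKO (177 UMIs), a log2 ratio of -0.92 (-1.16 to -0.69). In endothelial-like cells, which do not express albumin-Cre, it stood at 90.4 and 90.8 CPM. Nus1 was also lower in T/NK-like cells, at 72.9 and 47.8 CPM (log2 ratio -0.61), and in monocyte-like cells, at 67.1 and 47.8 CPM (-0.49). Both intervals lay below 0. Stellate-like (-0.54), plasmacytoid dendritic-like (-0.47), B-like (-0.41) and cholangiocyte-like cells (-0.33) were lower with intervals that included 0. Kupffer-like (0.03) and conventional dendritic-like cells (0.01) were not lower. The fall was thus not confined to hepatocyte-like cells. The reads come from the 3′ end, outside the deleted exon, so the Nus1 level reports the transcript that remains and not the deletion itself. WT hepatocyte-like cells lay mainly in cluster 0 (8110 cells) and those of N-LKO mainly in cluster 5 (1995 cells, with 110 of WT).

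The expression of integrin genes was compared as the log2 ratio of N-LKO over WT in each class. A gene was tested in a class if it had at least 20 UMIs over both libraries and a mean of at least 5 CPM, and it was counted when the libraries were at least 2-fold apart. Of 310 pairs of member and class, 148 were tested, with 25 members tested in at least 1 class. Of the tested pairs, 32 (21.6%) were at least 2-fold higher in N-LKO, 2 (1.35%) were at least 2-fold lower, and 108 lay above 0. Of all tested genes, between 4.02% and 14.3% were at least 2-fold higher in a class and between 2.85% and 11.9% lower. A member tested in several classes counts once in each, so the pairs are not separate members. The counting interval lay above 0 in 29 of the 32 higher pairs. Members higher in at least 1 class numbered 15, and the only member at least 2-fold lower in any class was Itga8.

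**Figure D1:**
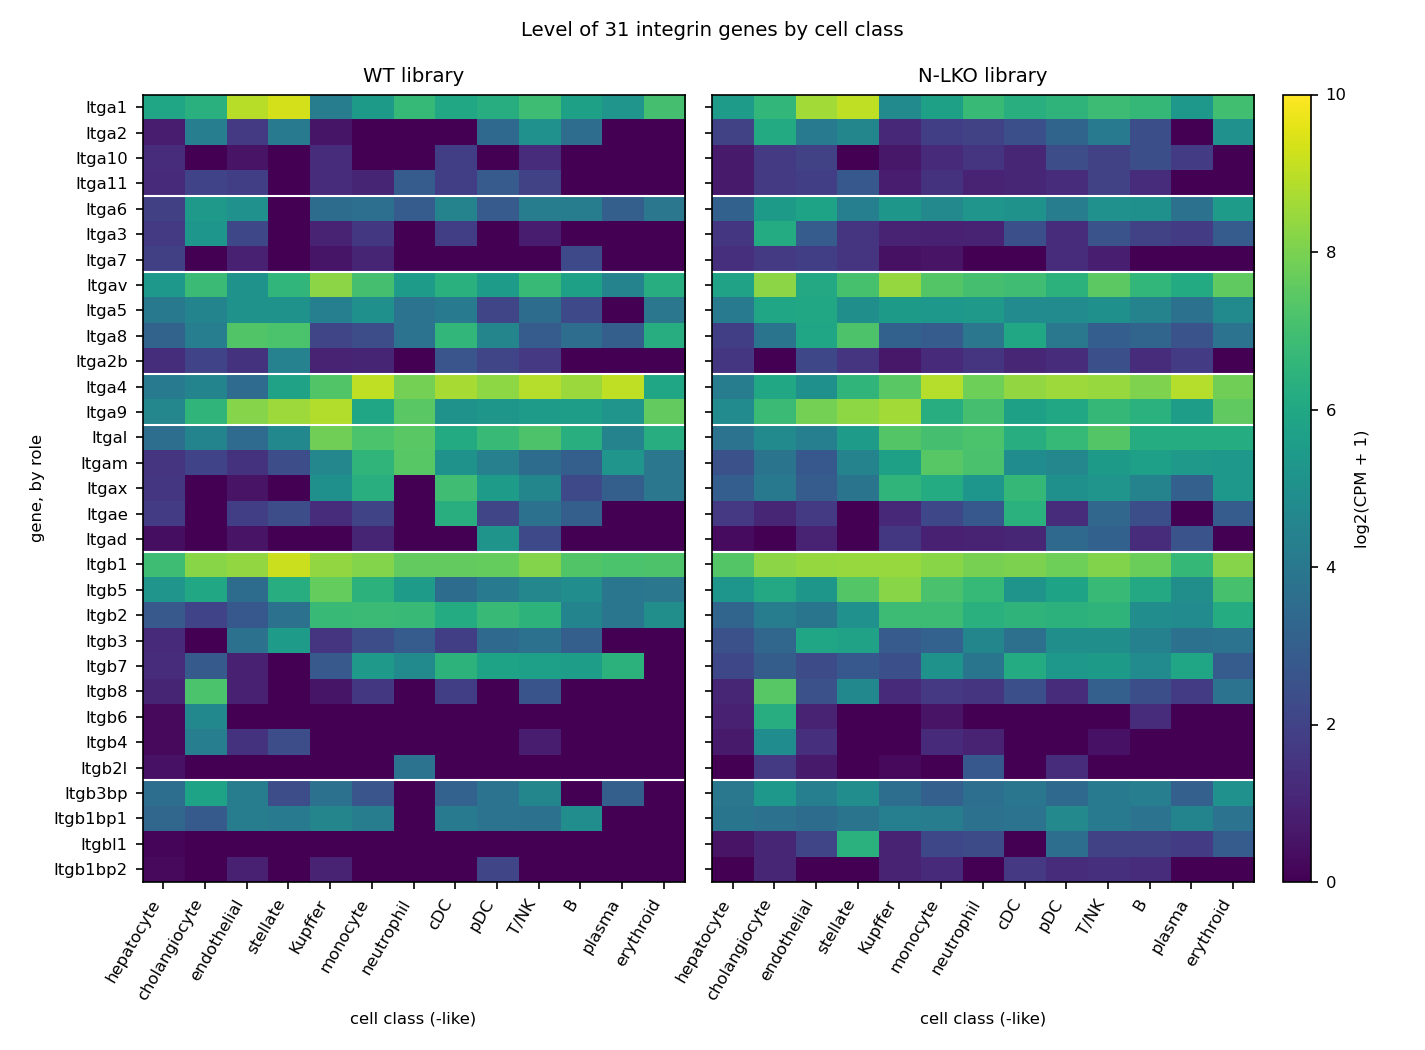
Heat map of the level of each of the 31 integrin genes (rows, grouped by role, white lines between roles) in 13 cell classes (columns), as log2(CPM + 1), for the WT library on the left and the N-LKO library on the right. Itga1 and Itgb1 are bright in stellate-like and endothelial-like cells, Itga4 in leukocytes, and Itgb6 and Itgb8 in cholangiocyte-like cells.

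The share of members at least 2-fold higher stood above that of all tested genes in several classes and near it in others. In cholangiocyte-like cells, 5 of 15 tested members were at least 2-fold higher (Itga2, Itgb6, Itgav, Itga4 and Itga5) and 0 were lower, beside 8.0% of all tested genes higher and 6.59% lower. In endothelial-like cells, 5 of 15 were higher (Itga2, Itgb3, Itgb5, Itga4 and Itgb2) and 1 was lower (Itga8), beside 10.5% higher and 7.16% lower. In Kupffer-like cells, 5 of 16 were higher (Itga6, Itgax, Itga8, Itga5 and Itgam) and 0 lower, beside 4.02% higher and 6.02% lower. Thus the share of integrin genes stood above the share of all genes in these classes, a description with no test.

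In T/NK-like, plasmacytoid dendritic-like and stellate-like cells the counts were also above the background. In T/NK-like cells, a single cluster that held T and natural killer markers, 6 of 21 members were higher (Itgb5, Itgam, Itga5, Itgb3, Itga9 and Itgad) and 0 lower, beside 12.2% higher and 7.57% lower. In plasmacytoid dendritic-like cells, 3 of 14 were higher (Itga5, Itgb5 and Itgb3) and 0 lower, beside 8.48% higher and 8.29% lower. In stellate-like cells, 3 of 12 were higher (Itgbl1, Itgb2 and Itgb5) and 0 lower, beside 13.4% higher and 11.9% lower. Of these 3, Itgbl1 encodes no subunit, the Itgb2 interval included 0, and Itgb5 was at least 2-fold higher in 5 of 9 settings. The stellate-like count therefore gives little ground for an excess of subunits. In B-like cells, 2 of 11 were higher (Itgam and Itgb5) and 0 lower, a share close to the background of 14.3% higher, with 9.83% lower.

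In the remaining classes the counts were near the background. In hepatocyte-like cells, 1 of 13 members was higher (Itga6) and 1 lower (Itga8), beside 4.52% of all tested genes higher and 2.85% lower. In monocyte-like cells, 1 of 16 was higher (Itga6) and 0 lower, beside 5.45% and 7.86%. In conventional dendritic-like cells, 1 of 15 was higher (Itgb5) and 0 lower, beside 7.93% and 5.72%.

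**Figure D2:**
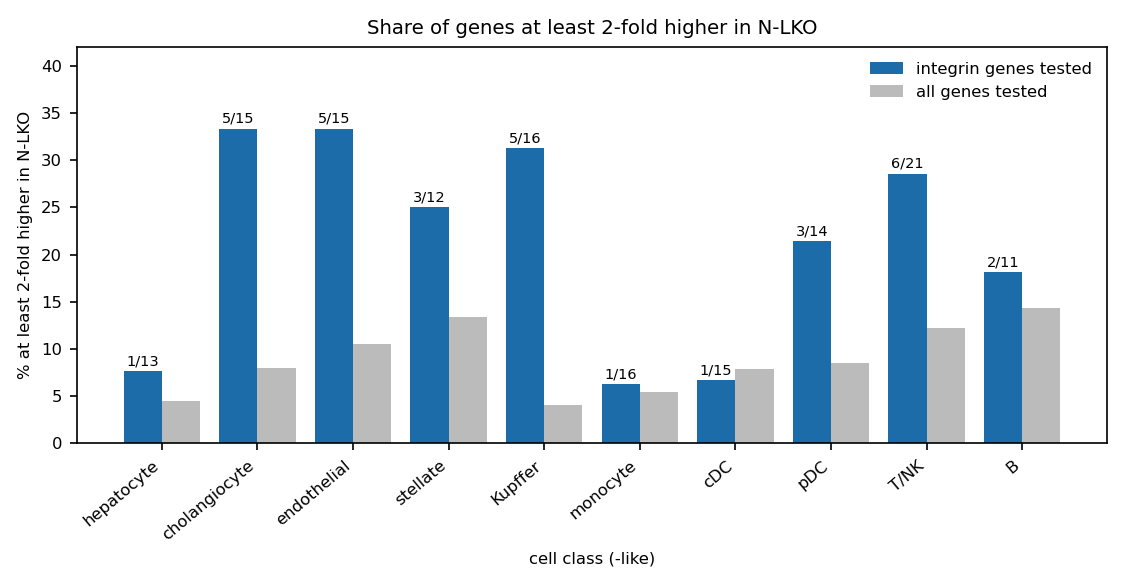
Share of tested genes at least 2-fold higher in N-LKO (vertical axis, percent) in each of the 10 compared cell classes, for integrin genes (blue, with counts above the bars) and for all genes tested (grey). The blue bar stands above the grey one in 9 classes, by the least in monocyte-like cells (1 of 16 beside 5.45%), and below it in conventional dendritic-like cells.

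The median log2 ratio of the tested members lay between 0.15 (Kupffer-like) and 0.85 (endothelial-like) in the 10 classes, where the median of all tested genes lay between -0.07 and 0.12, so the center of the family was shifted less than its extremes. The extent of this shift changed with the length of the genes. In 9 classes the median ratio of all tested genes was higher for genes of longer genomic span, from between -0.68 and -0.22 among the shortest 1 of 5 groups of genes to between 0.18 and 0.64 among the longest, and in hepatocyte-like cells it went from 0.25 to -0.07. Relative to genes of like span, that is of the same 1 of 5 equal groups, the members' median was 0.49 in endothelial-like cells, 0.07 in T/NK-like cells, 0.24 in B-like cells and 0.02 in monocyte-like cells, and 26 of the 32 higher pairs remained at least 2-fold higher.

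**Figure D3:**
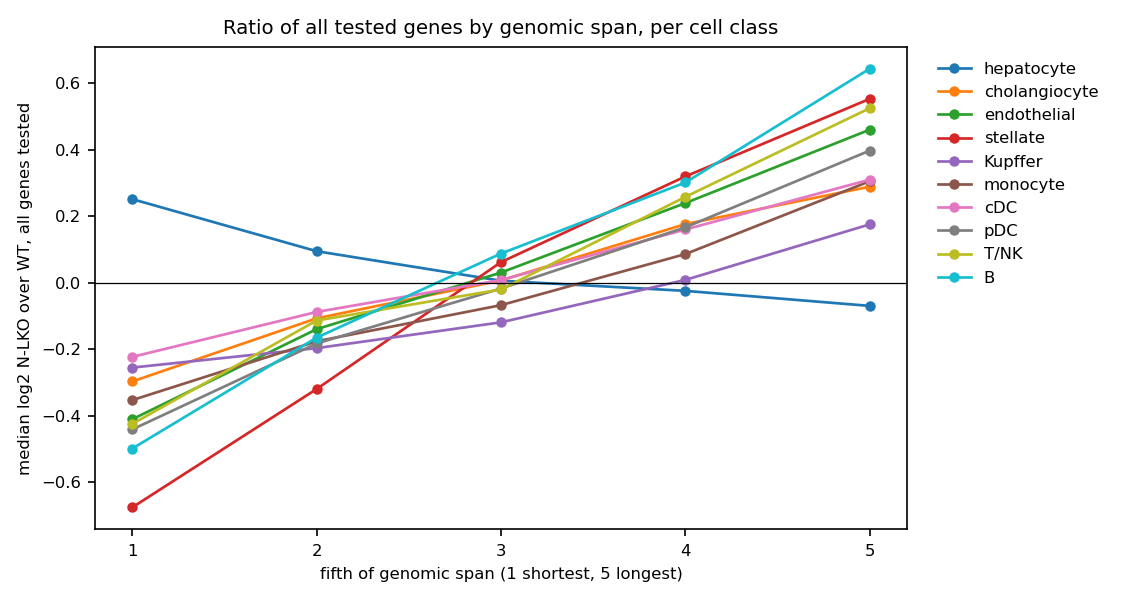
Median log2 ratio of N-LKO over WT of all genes tested (vertical axis) in 5 equal groups of genomic span from the shortest to the longest (horizontal axis), 1 line per cell class. The lines climb from the shortest to the longest genes in 9 classes and decline in hepatocyte-like cells.

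Itgb1, the common beta chain, held the most UMIs of the family, 4731 in WT and 7489 in N-LKO, and was not 2-fold apart in any of the 10 classes. It stood at 593 CPM in WT stellate-like cells and 346 CPM in those of N-LKO, a log2 ratio of -0.78 (-1.10 to -0.45). In hepatocyte-like cells it stood at 118 CPM in WT against 158 CPM in N-LKO cells, a log2 ratio of 0.41 (0.29 to 0.54). That direction turned with free RNA subtracted, to -0.54, and within cluster 5 the levels were 167 CPM in 110 WT cells and 158 CPM in 1995 N-LKO cells. In the other classes, endothelial-like cells held 334 and 343 CPM, Kupffer-like cells 333 and 354, cholangiocyte-like cells 295 and 307, monocyte-like cells 282 and 299, and T/NK-like cells 282 and 275. Conventional dendritic-like cells held 194 and 258 CPM, plasmacytoid dendritic-like cells 196 and 223, and B-like cells 155 and 217, the last a log2 ratio of 0.48 (-0.01 to 1.01). Of the classes not compared, neutrophil-like cells held 193 and 247 CPM, plasma-like cells 143 and 101 CPM, and erythroid-like cells 147 and 291 CPM. Stellate-like cells stood above every other class in WT beyond the counting intervals, while in N-LKO the intervals of Kupffer-like, stellate-like and endothelial-like cells overlapped.

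Itgb5, whose product pairs with the alpha v chain as a vitronectin receptor, was the member most often higher in N-LKO. Without subtraction of free RNA, it was at least 2-fold higher in 6 of the 10 classes and above 0 in all 10. Its level was highest in Kupffer-like cells of both libraries, 198 CPM (180 to 218) in WT against 301 CPM (286 to 316) in N-LKO cells, a log2 ratio of 0.60 (0.45 to 0.76). In T/NK-like cells it stood at 23.6 CPM (33 UMIs) in WT against 104 CPM (258 UMIs) in N-LKO cells, a log2 ratio of 2.13 (1.62 to 2.72). The ratio was 0.52 among the 48 WT cells and 200 N-LKO cells with at least 2000 UMIs. In endothelial-like cells it stood at 10.6 CPM (24 UMIs) and 38.1 CPM (118 UMIs), a log2 ratio of 1.83 (1.21 to 2.55). The WT endothelial-like level was no higher than the 11.9 CPM that the free RNA alone would give, against 20.8 CPM in N-LKO.

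The smaller classes gave the same direction for Itgb5. It stood at 10.5 and 35.0 CPM in conventional dendritic-like cells (4 and 32 UMIs), at 16.0 and 55.4 CPM in plasmacytoid dendritic-like cells (5 and 40 UMIs), at 28.8 and 64.3 CPM in B-like cells (8 and 45 UMIs) and at 74.2 and 160 CPM in stellate-like cells (18 and 84 UMIs). The last of these was a log2 ratio of 1.08 (0.36 to 1.93), which went to 0.42 when droplets with markers of several lineages were kept and to 0.52 relative to genes of like span. In B-like cells the ratio of 1.09 was also under 2-fold relative to genes of like span, at 0.44. In monocyte-like cells the levels were 83.9 and 140 CPM, in cholangiocyte-like cells 61.6 and 64.3 CPM, and in hepatocyte-like cells 35.7 and 37.7 CPM. In cholangiocyte-like cells the log2 ratio was 0.04 (-0.69 to 0.88) and in hepatocyte-like cells 0.08 (-0.18 to 0.32). Thus the epithelial classes held like levels in the libraries, within those intervals, when free RNA was not subtracted. With it subtracted, the log2 ratio was -0.96 in hepatocyte-like and -0.23 in cholangiocyte-like cells. The Itgb5 ratio was at least 2-fold in lymphoid, dendritic, endothelial-like and stellate-like cells. Kupffer markers, of the class with the most Itgb5, summed to 666 and 1320 CPM in T/NK-like cells. They summed to 597 and 1036 CPM in stellate-like, 219 and 304 CPM in endothelial-like and 263 and 395 CPM in conventional dendritic-like cells. In plasmacytoid dendritic-like cells they summed to 523 and 676 CPM, and in B-like cells to 572 and 496 CPM. The part of Kupffer RNA in the Itgb5 ratios was not tested.

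The upstream sequences of Itgb5 and Itga5, the members higher in the most classes, are shown as reference sequence. They are the 250 bases before the RefSeq start site in GRCm38.p6, 5′ to 3′ on the strand of the gene, for Itgb5 at chr16:33829415-33829664 (plus strand) and for Itga5 at chr15:103366792-103367041 (minus strand), with each GGGCGG or its reverse complement CCGCCC in capitals.
Itgb5: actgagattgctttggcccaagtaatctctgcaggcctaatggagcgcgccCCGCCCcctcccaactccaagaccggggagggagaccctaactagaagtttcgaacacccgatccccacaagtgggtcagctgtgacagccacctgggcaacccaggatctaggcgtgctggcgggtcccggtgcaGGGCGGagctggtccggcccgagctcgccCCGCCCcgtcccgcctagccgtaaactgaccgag
Itga5: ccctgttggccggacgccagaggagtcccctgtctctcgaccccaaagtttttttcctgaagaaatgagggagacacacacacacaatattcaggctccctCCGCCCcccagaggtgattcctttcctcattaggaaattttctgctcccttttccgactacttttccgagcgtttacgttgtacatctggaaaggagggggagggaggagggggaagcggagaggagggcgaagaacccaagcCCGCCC
The Itgb5 window held 3 such matches and the Itga5 window 2. The letters GGGCGG on either strand were found in 8 of the 24 windows of members, and in 32.7% of all 32851 windows of the same length. TATAAA, on either strand, was found in 0 of the 24 member windows and in 12.4% of all windows. Windows were matched for 22 of the 31 members, and a match of letters is a description and not a binding site.

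**Figure D4:**
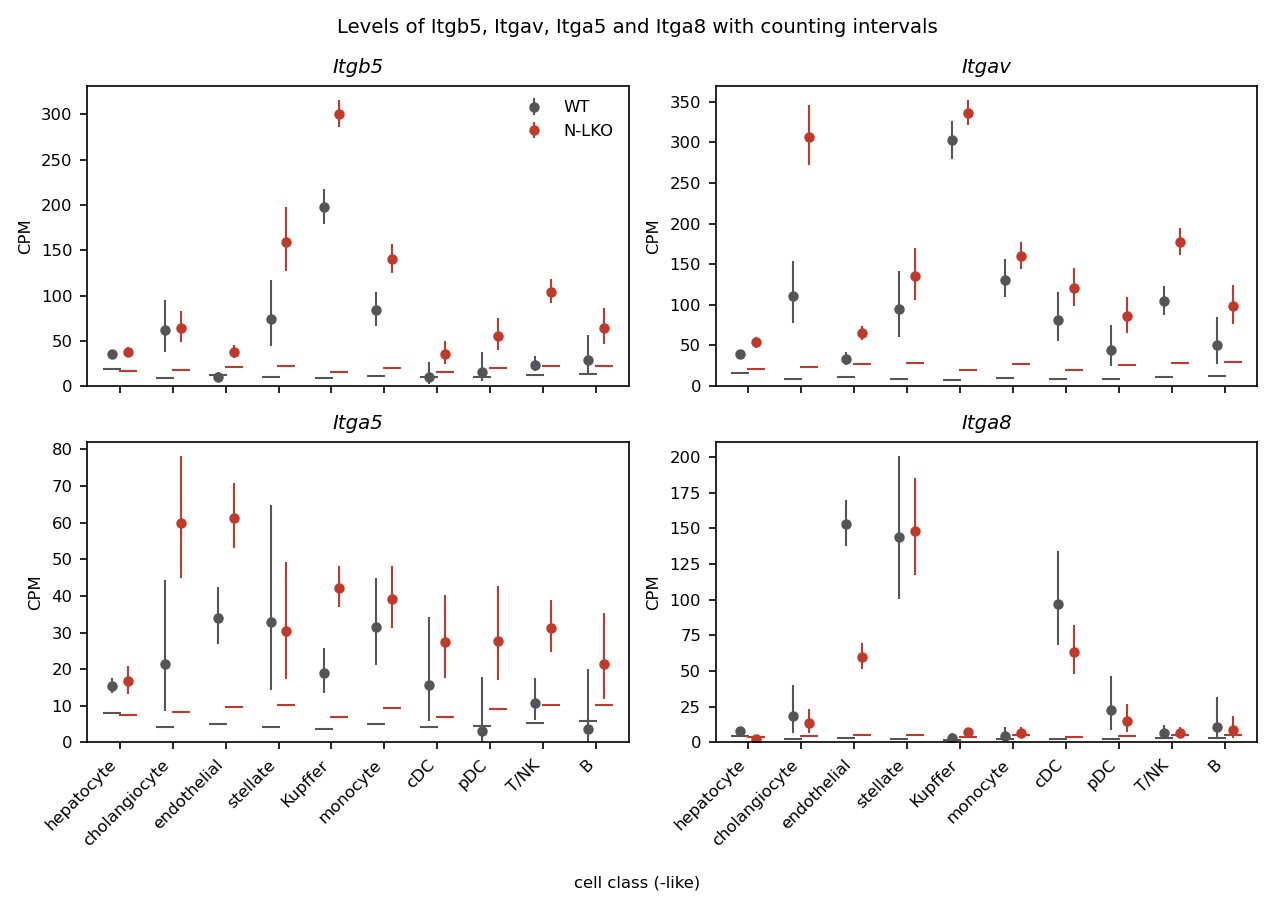
Level of Itgb5, Itgav, Itga5 and Itga8 in CPM (vertical axes) in the 10 compared cell classes (horizontal axes), WT in grey and N-LKO in red, with 95% counting intervals as vertical lines and the level the free RNA alone would give as short horizontal lines. Itgb5 is highest in Kupffer-like cells of both libraries, and Itga8 in endothelial-like cells is 153 CPM in WT against 60.1 CPM in N-LKO.

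Itgb3, the beta chain of the platelet fibrinogen receptor and a partner of the alpha v chain, was at least 2-fold higher in 3 of the 5 classes where it was tested and above 0 in all 5. In endothelial-like cells it stood at 12.3 CPM (28 UMIs) in WT against 57.2 CPM (177 UMIs) in N-LKO cells, a log2 ratio of 2.19 (1.63 to 2.84). In T/NK-like cells it stood at 12.1 and 30.8 CPM, a log2 ratio of 1.31 (0.57 to 2.19), and at 0.97 with free RNA subtracted. In plasmacytoid dendritic-like cells 3 UMIs in WT and 22 in N-LKO gave a log2 ratio of 1.47 (-0.07 to 4.05), whose interval included 0. The platelet markers Pf4, Ppbp, Gp9, Gp1bb and Treml1 together stood at 5.73 CPM in WT against 4.85 CPM in N-LKO endothelial-like cells, and at 8.58 and 41.7 CPM in T/NK-like cells.

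The other beta chains were highest in leukocytes or in cholangiocyte-like cells. Itgb2, the common chain of leukocyte integrins, was spread over leukocyte classes and did not differ 2-fold in them: 111 and 115 CPM in monocyte-like cells, 107 and 114 CPM in Kupffer-like cells, 87.2 and 90.3 CPM in T/NK-like cells, 106 and 85.9 CPM in plasmacytoid dendritic-like cells, and 70.9 and 89.7 CPM in conventional dendritic-like cells. In endothelial-like cells, which are not leukocytes, it stood at 5.73 CPM (13 UMIs) in WT against 13.9 CPM (43 UMIs) in N-LKO cells, a log2 ratio of 1.24 (0.36 to 2.30). That ratio was 0.93 when droplets with markers of several lineages were kept. The monocyte or macrophage markers in these cells summed to 96.5 CPM in WT against 239 CPM in N-LKO cells, and their part in the Itgb2 ratio was not tested. Itgb2 in stellate-like cells, with 3 and 17 UMIs, gave a log2 ratio of 1.21 (-0.40 to 3.80) that included 0.

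Itgb7, the chain of the gut-homing receptor of lymphocytes, was tested in 6 classes and above 0 in none of them. It stood at 86.6 and 71.1 CPM in conventional dendritic-like cells, where it was highest in both libraries. Itgb6 and Itgb8, which pair with the alpha v chain to activate latent TGF-beta, were cholangiocyte genes here. Itgb6 stood at 24.6 CPM (8 UMIs) in WT against 74.3 CPM (67 UMIs) in N-LKO cholangiocyte-like cells, a log2 ratio of 1.52 (0.53 to 2.86) that was 0.78 among cells with at least 2000 UMIs, with 0 to 4 UMIs in any other class of either library. Itgb8 stood at 142 and 167 CPM in the same cells, a log2 ratio of 0.23 (-0.24 to 0.75). In stellate-like cells, where it had too few UMIs to be tested, Itgb8 had 0 UMIs in WT and 13 in N-LKO. Itgb4, the laminin-binding chain of epithelial hemidesmosomes, stood at 18.5 CPM (6 UMIs) in WT and 27.7 CPM (25 UMIs) in N-LKO cholangiocyte-like cells. That was a log2 ratio of 0.50 (-0.73 to 2.16).

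Among collagen receptors, Itga1 marked stellate-like and endothelial-like cells in both libraries, above every other class beyond the counting intervals. It stood at 655 and 525 CPM in stellate-like cells, a log2 ratio of -0.32 (-0.61 to -0.03). In endothelial-like cells it stood at 488 and 395 CPM, a log2 ratio of -0.30 (-0.42 to -0.18). With 0.5 UMI added to each sum, it was 2-fold apart in none of the 10 classes, and came nearest in B-like cells, at a log2 ratio of 0.97 (0.17 to 1.95). The remaining named levels were 119 and 115 CPM in T/NK-like cells, 80.0 and 97.6 CPM in cholangiocyte-like cells, 73.8 and 88.6 CPM in plasmacytoid dendritic-like cells, 60.4 and 78.7 CPM in conventional dendritic-like cells, 50.4 and 101 CPM in B-like cells, and 59.6 and 43.7 CPM in hepatocyte-like cells. Myeloid cells held less, with 43.0 and 50.9 CPM in monocyte-like cells and 17.1 and 26.4 CPM in Kupffer-like cells. The classes too small to be compared held 103 and 109 CPM (neutrophil-like), 35.8 and 39.3 CPM (plasma-like) and 132 and 123 CPM (erythroid-like).

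Itga2, the other collagen receptor with enough UMIs, was tested in 3 classes and was at least 2-fold higher in N-LKO in endothelial-like and cholangiocyte-like cells. In endothelial-like cells it stood at 2.20 CPM (5 UMIs) in WT against 17.1 CPM (53 UMIs) in N-LKO cells, a log2 ratio of 2.83 (1.65 to 4.64). In cholangiocyte-like cells it stood at 18.5 CPM (6 UMIs) and 68.8 CPM (62 UMIs), a log2 ratio of 1.79 (0.69 to 3.40). Both ratios stayed at least 2-fold in every alternative in which they were tested. Itga2 went the other way in T/NK-like cells, from 32.2 CPM (45 UMIs) to 16.6 CPM (41 UMIs), a log2 ratio of -0.95 (-1.60 to -0.31). That ratio passed 2-fold relative to all genes tested, at -1.03, relative to genes of like span, at -1.48, and with free RNA subtracted, at -1.27. The natural killer markers in T/NK-like cells summed to 916 CPM in WT against 479 CPM in N-LKO, and the T markers to 1837 and 1086 CPM. Their part in the Itga2 ratio was not tested. Itga10 and Itga11 were tested in no class, with 93 and 89 UMIs in all.

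Among laminin receptors, Itga6 was above 0 in all 8 classes where it was tested and at least 2-fold higher in 3. In Kupffer-like cells it stood at 10.7 CPM (23 UMIs) in WT against 37.8 CPM (198 UMIs) in N-LKO cells, a log2 ratio of 1.80 (1.20 to 2.52). In hepatocyte-like cells it stood at 2.77 CPM (46 UMIs) and 7.62 CPM (35 UMIs), a log2 ratio of 1.47 (0.78 to 2.13). In monocyte-like cells 11 and 57 UMIs gave a log2 ratio of 1.06 (0.17 to 2.20), which was under 2-fold with free RNA subtracted, at 0.79. Elsewhere Itga6 stood at 32.6 and 54.6 CPM in endothelial-like cells, 40.0 and 42.1 CPM in cholangiocyte-like cells, 17.2 and 32.4 CPM in T/NK-like cells, 18.0 and 31.4 CPM in B-like cells, 21.0 and 32.8 CPM in conventional dendritic-like cells and 6.41 and 18.0 CPM in plasmacytoid dendritic-like cells. In stellate-like cells it had 0 UMIs in WT and 10 in N-LKO. Among classes not compared, Itga6 stood at 6.43 and 36.0 CPM in neutrophil-like cells (1 and 37 UMIs). Plasma-like cells held 7.16 and 12.3 CPM (1 and 5 UMIs) and erythroid-like cells 14.7 and 45.3 CPM (1 and 7 UMIs). Itga3 was tested in cholangiocyte-like cells alone, at 36.9 and 69.9 CPM, a log2 ratio of 0.87 (0.02 to 1.95).

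Of the RGD receptors, Itgav was above 0 in all 10 classes and at least 2-fold higher in 1, without subtraction of free RNA. Itgav in hepatocyte-like cells had a log2 ratio of 0.47 (0.25 to 0.68), which turned to -0.73 with free RNA subtracted. In cholangiocyte-like cells it stood at 111 CPM (78 to 153) in WT against 307 CPM (272 to 346) in N-LKO cells, a log2 ratio of 1.45 (0.97 to 2.01). At a mitochondrial limit of 10%, which left 87 WT and 82 N-LKO cells of the class, it was 0.36. Itgb6, Itga2, Itga4 and Itga5 were the other members at least 2-fold higher in these cells, while Itgb1 stood at a log2 ratio of 0.05 (-0.28 to 0.41). In Kupffer-like cells, where Itgav was highest in both libraries, it stood at 303 and 337 CPM, a log2 ratio of 0.15 (0.02 to 0.29). In T/NK-like cells it stood at 104 and 178 CPM, a log2 ratio of 0.77 (0.50 to 1.05). The other named levels were 131 and 161 CPM in monocyte-like cells, 94.8 and 135 CPM in stellate-like cells, 81.4 and 120 CPM in conventional dendritic-like cells, 44.9 and 85.9 CPM in plasmacytoid dendritic-like cells, 50.4 and 98.6 CPM in B-like cells, 38.9 and 53.8 CPM in hepatocyte-like cells, and 33.5 and 64.9 CPM in endothelial-like cells. In the small classes Itgav had 7 and 137 UMIs (neutrophil-like), 3 and 28 UMIs (plasma-like) and 5 and 29 UMIs (erythroid-like).

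Itga5, the fibronectin receptor chain that pairs with beta 1, was at least 2-fold higher in 4 of 9 classes and above 0 in 8. Itga5 in hepatocyte-like cells had a log2 ratio of 0.12 (-0.27 to 0.49), which was -0.95 with free RNA subtracted. In Kupffer-like cells it stood at 19.0 CPM (41 UMIs) and 42.2 CPM (221 UMIs), a log2 ratio of 1.14 (0.67 to 1.67), which was 0.46 among cells with at least 2000 UMIs, 0.83 at the 10% mitochondrial limit and 0.97 at a clustering resolution of 1. In T/NK-like cells it stood at 10.7 CPM (15 UMIs) and 31.2 CPM (77 UMIs), a log2 ratio with an interval of 0.73 to 2.45, which was 0.72 with 2000 UMIs and 0.88 at the 10% limit. In cholangiocyte-like cells 7 and 54 UMIs gave a log2 ratio of 1.39 (0.33 to 2.86). In plasmacytoid dendritic-like cells 1 and 20 UMIs gave 2.56 (0.47 to 8.48), a wide interval set by the lone WT molecule.

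Itga8 was the only member at least 2-fold higher in one class and at least 2-fold lower in another. Smaller differences went both ways in other members, such as Itga2, Itga4 and Itga9. The alpha 8 chain of Itga8, a partner of beta 1 that binds nephronectin and fibronectin, had its transcript at 153 CPM (137 to 170) in WT endothelial-like cells and 60.1 CPM (51.8 to 69.4) in those of N-LKO, a log2 ratio of -1.35 (-1.61 to -1.09). In hepatocyte-like cells it stood at 8.12 CPM (135 UMIs) and 2.61 CPM (12 UMIs), a log2 ratio of -1.58 (-2.63 to -0.79), where the free RNA alone would give 4.42 and 3.98 CPM. In Kupffer-like cells 7 and 40 UMIs gave a log2 ratio of 1.16 (0.06 to 2.64), and 0.43 when droplets with markers of several lineages were kept. In stellate-like cells, its other high class, it stood at 144 and 148 CPM, a log2 ratio of 0.03 (-0.55 to 0.66). Conventional dendritic-like cells held 97.1 and 63.4 CPM, a log2 ratio of -0.62 (-1.23 to 0.02).

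Itga4 and Itga9 encode receptors of VCAM-1, tenascin and fibronectin. Itga4 was a leukocyte gene, at 524 and 473 CPM in monocyte-like cells, 472 and 346 CPM in T/NK-like cells, 417 and 335 CPM in conventional dendritic-like cells, 363 and 266 CPM in B-like cells, 314 and 368 CPM in plasmacytoid dendritic-like cells, and 155 and 172 CPM in Kupffer-like cells. None of these differed 2-fold, with log2 ratios from -0.45 to 0.22. It was at least 2-fold higher in N-LKO in classes where it was low. In endothelial-like cells it stood at 10.1 CPM (23 UMIs) in WT against 31.0 CPM (96 UMIs) in N-LKO cells, a log2 ratio of 1.59 (0.94 to 2.34), but -0.38 among cells with at least 2000 UMIs, of which there were 51 in WT and 237 in N-LKO. In cholangiocyte-like cells it stood at 21.5 CPM (7 UMIs) and 62.1 CPM (56 UMIs), a log2 ratio of 1.44 (0.39 to 2.91), but 0.30 with 2000 UMIs and 0.83 at the 10% mitochondrial limit. Stellate-like cells held 53.6 and 91.2 CPM, from 13 and 48 UMIs.

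Itga9 was highest in Kupffer-like, stellate-like and endothelial-like cells of both libraries. It stood at 463 and 390 CPM in Kupffer-like cells, a log2 ratio of -0.25 (-0.36 to -0.14), at 375 and 316 CPM in stellate-like cells, and at 290 and 239 CPM in endothelial-like cells. It was at least 2-fold higher in T/NK-like cells alone, at 44.3 CPM (62 UMIs) and 99.2 CPM (245 UMIs), a log2 ratio of 1.15 (0.76 to 1.59). In that class the Kupffer markers moved the same way, as given above, and the ratio was 0.92 with droplets of several lineages kept and 0.63 relative to genes of like span. The other named levels were 92.3 and 113 CPM in cholangiocyte-like cells, 58.7 and 75.0 CPM in monocyte-like cells, 38.5 and 62.3 CPM in plasmacytoid dendritic-like cells, and 46.8 and 82.9 CPM in B-like cells.

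Among leukocyte receptors, the partners of beta 2 differed from one another. Itgal, the alpha chain of LFA-1, was not 2-fold apart in any class: it stood at 225 and 160 CPM in Kupffer-like cells, a log2 ratio of -0.49 (-0.65 to -0.33), at 148 and 160 CPM in T/NK-like cells, at 144 and 131 CPM in monocyte-like cells, at 106 and 102 CPM in plasmacytoid dendritic-like cells, at 75.6 and 72.9 CPM in B-like cells, and at 68.3 and 73.3 CPM in conventional dendritic-like cells. Outside these leukocytes Itgal was low, at 11.2 and 12.8 CPM in hepatocyte-like cells, 10.1 and 18.7 CPM in endothelial-like cells, 21.5 and 25.5 CPM in cholangiocyte-like cells, and 24.7 and 45.6 CPM in stellate-like cells. It stood at 173 and 144 CPM in neutrophil-like cells, which were not compared. Plasma-like cells held 21.5 and 71.1 CPM (3 and 29 UMIs) and erythroid-like cells 73.3 and 71.2 CPM (5 and 11 UMIs). Itgax, the CD11c chain of dendritic cells and some macrophages, stood at 31.1 CPM (67 UMIs) and 93.5 CPM (489 UMIs) in Kupffer-like cells, a log2 ratio of 1.58 (1.22 to 1.98), and 0.79 with 2000 UMIs. In conventional dendritic-like cells, where it was highest, Itgax stood at 121 and 99.5 CPM, and in monocyte-like cells at 75.5 and 70.6 CPM. The monocyte or macrophage markers in Kupffer-like cells summed to 2501 CPM in WT against 4075 CPM in N-LKO cells, and the 8 Kupffer markers to 9162 and 7292 CPM.

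Itgam, the CD11b chain of myeloid cells, was at least 2-fold higher in 3 classes. In Kupffer-like cells it stood at 23.6 CPM (51 UMIs) in WT against 50.3 CPM (263 UMIs) in N-LKO cells, a log2 ratio of 1.08 (0.65 to 1.55), which was 0.96 with free RNA subtracted and 0.77 with 2000 UMIs. In T/NK-like cells it stood at 10.7 CPM (15 UMIs) and 42.1 CPM (104 UMIs), a log2 ratio of 1.93 (1.19 to 2.86) that was 0.81 at a clustering resolution of 1, and in B-like cells 2 and 34 UMIs gave 2.45 (0.79 to 5.86). The monocyte markers also stood higher in these lymphoid classes of N-LKO, by the sums given above. In monocyte-like cells Itgam stood at 91.3 and 170 CPM, a log2 ratio of 0.89 (0.56 to 1.25). Itgae, the chain that binds E-cadherin, stood at 78.8 and 82.0 CPM in conventional dendritic-like cells, and Itgad gave a log2 ratio of 1.01 (-0.36 to 2.88) in T/NK-like cells, from 5 and 19 UMIs.

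**Figure D5:**
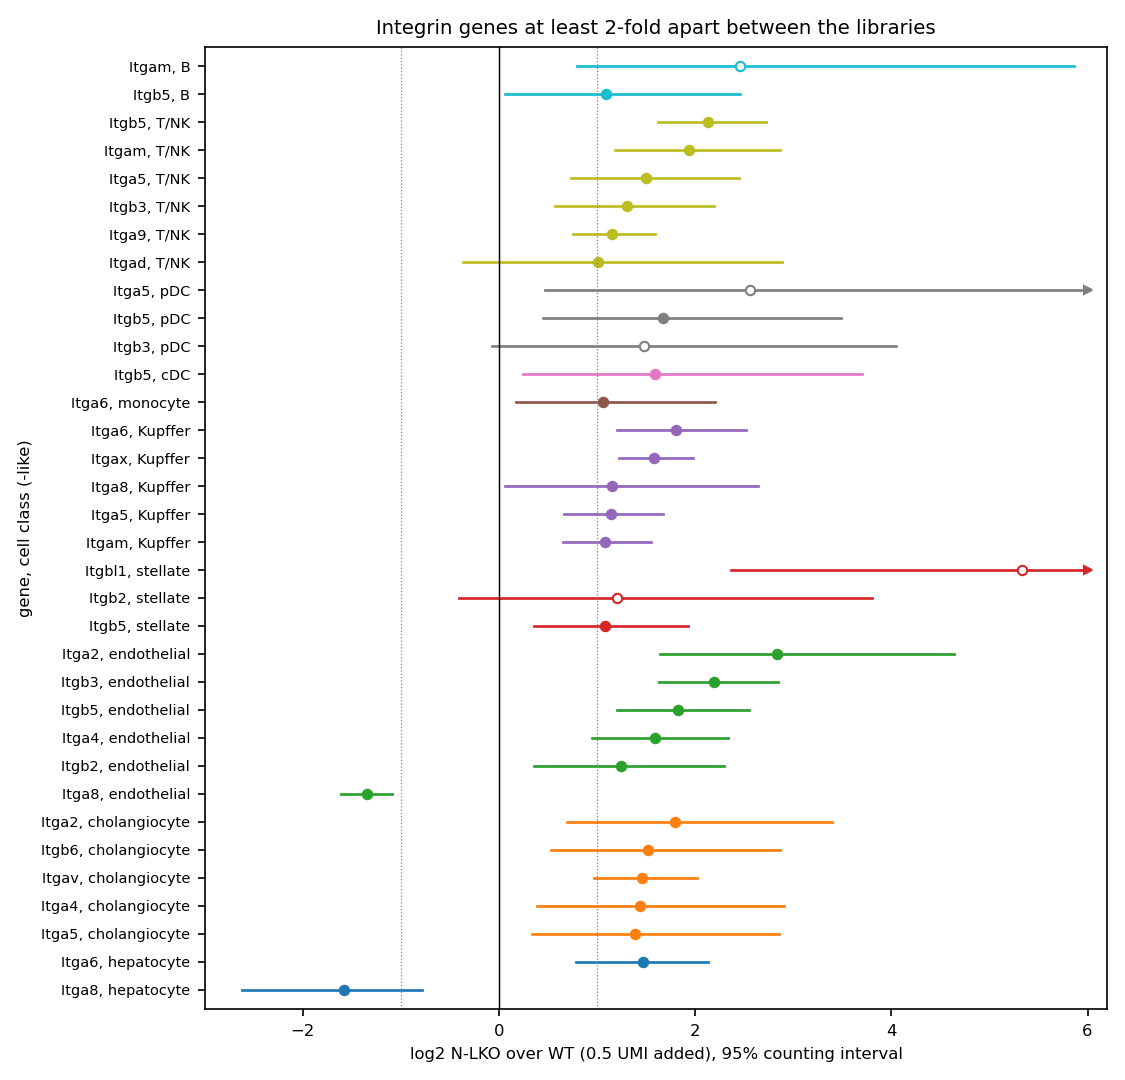
Log2 ratio of N-LKO over WT (horizontal axis, 0.5 UMI added to each sum) for the 34 pairs of gene and cell class at least 2-fold apart (vertical axis), with 95% counting intervals; dotted lines mark 2-fold, open circles pairs with at most 3 UMIs in WT, arrows intervals that run beyond the axis. Itga8 in endothelial-like and hepatocyte-like cells lies to the left, and the other 32 pairs lie to the right.

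Of the genes that encode no subunit, Itgbl1 stood out in stellate-like cells, where it is named although the class had 176 cells in WT and so falls outside the rule for named genes. It had 0 UMIs in the 176 WT cells and 43 in the 338 N-LKO cells, or 81.7 CPM (59.2 to 110), at least 6.61-fold above the 12.4 CPM that 3 UMIs over the WT class would give. It had 3 UMIs in all kept WT cells and 106 in those of N-LKO. Itgb2 in the same class was named after its value was seen as well. Itgb1bp1, with 731 UMIs in all, and Itgb3bp, with 785, were tested in 6 classes each and 2-fold apart in none. Itgb1bp2, Itgb2l, Itga2b and Itga7 had 41, 26, 95 and 89 UMIs in all and were tested in no class.

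A cluster of 2046 N-LKO cells and 1 WT cell was left unnamed, since the list that scored highest in it, of hepatocyte markers, had only 1 marker raised. In it Itgb1 stood at 121 CPM (479 UMIs), Itgb5 at 99.3 CPM, Itga1 at 89.4 CPM (353 UMIs), Itgav at 81.8 CPM (323 UMIs), Itga5 at 50.9 CPM (201 UMIs) and Itgb3 at 35.5 CPM (140 UMIs). In the hepatocyte-like cells of the same library these stood at 158, 37.7, 43.7, 53.8, 16.8 and 4.57 CPM. With no WT cells to set beside them, these values describe the N-LKO library alone.

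Genes that act with integrins were followed as 5 lists of 98 genes in all. Activators and adaptors, such as talins and kindlins that bind the beta tail, had from 0 to 5 genes at least 2-fold higher per class: 5 of 25 in endothelial-like cells, 5 of 26 in T/NK-like cells, 4 of 21 in B-like cells, and 0 of 25 in Kupffer-like and 0 of 24 in hepatocyte-like cells. Tns1, encoding the adaptor tensin 1, stood at 102 and 246 CPM in endothelial-like cells, a log2 ratio of 1.27 (1.06 to 1.49), and at 32.2 and 128 CPM in T/NK-like cells, a log2 ratio of 1.98 (1.54 to 2.48). This list had 8 lower calls in 5 classes. In stellate-like cells 2 of 22 were higher and 4 lower, and among the lower ones Fermt2 (kindlin-2) stood at 536 and 253 CPM, a log2 ratio of -1.08 (-1.44 to -0.72), and Vcl (vinculin) at 363 and 169 CPM, a log2 ratio of -1.10 (-1.54 to -0.66). Fermt2 was also at least 2-fold lower in monocyte-like cells, at -1.03, in conventional dendritic-like cells, at -1.35, and in plasmacytoid dendritic-like cells, at -1.28. The other lower call was Rasgrp2, an activator of Rap1, in B-like cells, at -1.22. The signalling list, with the kinases downstream of adhesion, had 0 to 3 genes higher per class and 0 lower in any of the 10. Over the 10 classes, 18 of 175 tested pairs of gene and class were higher in it. Among activators and adaptors 21 of 227 were higher. Both shares lay within the 4.02% to 14.3% of all tested genes that were higher in the single classes.

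Matrix ligands were the list with the most genes at least 2-fold higher: 8 of 14 in monocyte-like cells, 8 of 15 in T/NK-like cells, 7 of 13 in Kupffer-like cells, and 2 to 5 in each of the other classes. Lower ligands were found in stellate-like cells alone, with 5 of 21 higher and 6 lower. Spp1, encoding the RGD ligand osteopontin, stood at 23.6 CPM in WT hepatocyte-like cells and 502 CPM in those of N-LKO, a log2 ratio of 4.41 (4.26 to 4.57), and at 38.0 and 207 CPM in Kupffer-like cells, a log2 ratio of 2.43 (2.12 to 2.78). Fn1 (fibronectin) stood at 123 and 340 CPM in endothelial-like cells, a log2 ratio of 1.47 (1.28 to 1.67), and Col1a2 at 527 and 222 CPM in stellate-like cells, a log2 ratio of -1.25 (-1.62 to -0.87). Lama2, a laminin chain, stood at 53.6 and 293 CPM in the same cells, a log2 ratio of 2.40 (1.63 to 3.39). With free RNA subtracted, the Spp1 ratio was 4.37 in hepatocyte-like and 2.22 in Kupffer-like cells. It went from 1.68 to 0.20 in T/NK-like and from 1.25 to -0.82 in plasmacytoid dendritic-like cells. Fn1 in endothelial-like cells went to 9.36. The list median went from 0.63 to 0.12 in endothelial-like and from 1.29 to 1.03 in Kupffer-like cells. It rose from 1.24 to 1.52 in monocyte-like and from 1.22 to 3.83 in T/NK-like cells. Which cells made these ligands was not tested.

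Counter-receptors on cells had 4 of 9 genes at least 2-fold higher in T/NK-like cells, 4 of 6 in conventional dendritic-like cells and 0 lower in any class. Vcam1, the ligand of the alpha 4 and alpha 9 chains, stood at 58.5 and 166 CPM in cholangiocyte-like cells, a log2 ratio of 1.48 (0.82 to 2.28). The list of assembly, glycosylation and trafficking had 0 to 3 higher per class, or 16 of 146 tested pairs of gene and class. That share also lay within the 4.02% to 14.3% of all tested genes. The list had 2 lower calls in all, whose intervals include 0. They were Cd151 in stellate-like cells at -1.24 (-2.56 to 0.07) and Snx17 in plasmacytoid dendritic-like cells at -1.04 (-2.12 to 0.07). In the same list Mgat5, the N-glycan branching enzyme, stood at 58.2 and 162 CPM in endothelial-like cells, a log2 ratio of 1.48 (1.20 to 1.77). The tetraspanin Cd9 stood at 13.6 and 72.0 CPM in hepatocyte-like cells, a log2 ratio of 2.40 (2.16 to 2.66). For each class the background shares are those given above.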

How the data were processed

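Single-cell suspensions of mouse liver were profiled with the 10x Genomics 3′ assay in 2 libraries, 1 for WT and 1 for N-LKO. The authors deposited raw UMI counts per gene and barcode, made with Cell Ranger 7.1.0 per the file headers, and the submitters' processing notes name the mm9 build and Seurat. Barcodes with at least 1000 UMIs, at least 400 genes and at most 30% mitochondrial UMIs were kept. Doublets (Scrublet score of at least 0.25) and droplets with at least 3 UMIs from the markers of each of several lineages were removed. The latter filter, and the minimum of 150 cells per library for a class to be compared, were set after the data were seen. Cells were clustered in scanpy 1.11.5 (2000 variable genes, 30 components, Leiden resolution 0.3) without the integrin genes, and clusters were named from marker lists. UMIs were summed per class and library and scaled to CPM with exact Poisson intervals. Log2 ratios had 0.5 UMI added and exact conditional binomial intervals, both at 95%. Steps were tested on simulated data. With 1 library per genotype there was no test, and intervals cover counting error only. The precision of a value follows from the UMIs printed beside it.

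Members with a mean of at least 50 CPM in a class were named with values. So were members at least 2-fold apart, with at least 20 UMIs, in classes with at least 200 cells per library. The members and lists were chosen with earlier results of these data known. Gene spans came from GENCODE M21, for 32158 of the listed genes, and were used to group genes only. The notes' build and that annotation differ, so no coordinates of the counted genes are given. Promoter windows came from RefSeq (GRCm38.p6).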

Additional observations from a re-analysis of the deposited data

Results flagged for a closer look

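Itga8 is listed here because it was at least 2-fold lower in some cell classes and at least 2-fold higher in another under the same contrast of N-LKO over WT. Its log2 ratio was -1.58 in hepatocyte-like cells (135 and 12 UMIs) and -1.35 in endothelial-like cells (347 and 186 UMIs), but 1.16 in Kupffer-like cells (7 and 40 UMIs). The difference between the classes was not tested. The endothelial-like ratio stayed at least 2-fold in all 11 settings in which it was tested, from -2.13 to -1.33. The Kupffer-like ratio was under 2-fold in 3 of 8 settings, with a lowest value of 0.43 when droplets with markers of several lineages were kept.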

How the results depend on the processing

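No paired analysis was possible because each genotype had 1 library and no result came from a test. For the same reason no replicate could be left out. Of the 34 pairs at least 2-fold apart, 15 stayed so in every setting run. With cells thinned to 1000 UMIs, the share of cells holding the gene moved the same way in all 34. The pairs were picked from these same UMIs, so that agreement was close to fixed in advance and is no separate support. The 32 higher pairs became 12 with a minimum of 2000 UMIs, which left 2707 WT and 2741 N-LKO cells in named classes, 14 with a mitochondrial limit of 10%, 85 without a filter on low counts and 56 at 1.5-fold. The 2 lower pairs became 7 with the 10% limit, 8 with free RNA subtracted, 4 relative to genes of like span, 1 without clusters rich or poor in Malat1, 22 without the low-count filter, 7 at 1.5-fold and 4 with droplets of several lineages kept. The members' median in hepatocyte-like cells turned to -0.73 with free RNA subtracted. At the 10% limit the median was -0.53 in stellate-like, -0.54 in plasmacytoid dendritic-like and -1.02 in B-like cells, and with 2000 UMIs it was -0.065 in T/NK-like cells. Itga4 in endothelial-like cells turned to -0.38 with 2000 UMIs. The cause of these changes was not tested. Of 124 medians under alternatives, 119 were counted as unchanged. The interval of a median came from the spread of the members' ratios and not from counting error. It was wide, such as -0.28 to 1.59 in endothelial-like cells, so this count says little about stability. Of 958 member ratios, 871 moved by less than their counting error, while 78 of 248 counts by class moved by over 1.5 times. Keeping droplets of several lineages and leaving out shared barcodes were chosen after seeing the data. The limit of 2000 UMIs was not run for stellate-like, plasmacytoid dendritic-like and B-like cells, the setting without doublet removal for plasmacytoid dendritic-like cells, and the Malat1 setting for hepatocyte-like and cholangiocyte-like cells.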
